A study of Mus musculus with 12 samples.

Results

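The genes examined here belong to the amino acid and integrated stress response. The set has 39 members, a list of known ATF4 targets and partners put together from what the genes are known for but with earlier results of these data in view, and falls into 4 roles: 11 regulators and other targets, 11 enzymes of amino acid and one-carbon synthesis, 6 amino acid transporters and 11 cytosolic tRNA synthetases. Of the 39, 36 had a probe on the array, out of 19057 genes with a probe of 1 symbol, and each gene was read from its probe with the highest mean signal. The expression of *Mthfd1l*, *Pycr1* and *Slc7a5* was not analysed here. *Psph*, *Cth*, *Slc7a1* and *Yars* stayed under a log2 signal of 4.5, taken as the limit of background, on all 12 arrays, which left 32 measurable members.

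The series compared established medulloblastomas (MBs) that lack the secreted ligand Norrin with MBs that have it, and both with normal progenitors. There were 4 NdpKO;Ptch+/- MBs, from mice with a germline knockout of the X-linked gene *Ndp*, which encodes Norrin, together with 1 mutant copy of the Hedgehog receptor gene *Ptch*, 4 Ptch+/- MBs with intact *Ndp*, and 4 samples of granule neuron progenitors (GNPs), the cells from which these tumors arise, from wild-type (WT) mice at postnatal day 6. All 8 tumors carried the *Ptch* mutation, and no sample with the *Ndp* knockout alone was analysed here. By the records the strain was mixed for the NdpKO;Ptch+/- MBs, and C57Bl/6 was the strain of the Ptch+/- MBs and GNPs, so strain and genotype cannot be told apart from the records, although the methods describe comparisons within a breeding cohort. By the breeding scheme in the methods the NdpKO;Ptch+/- mice are male and controls may be of either sex, and the records do not give the sex of the samples, so the part of sex in the tumor comparison was not tested. The records give no age for the tumors. The paper reports a shorter mean tumor latency in NdpKO;Ptch+/- mice than in Ptch+/- littermates. The part of age in the tumor comparison was not tested. The records also do not say that each sample came from a different mouse, so a p-value covers the spread among these samples only.

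In the integrated stress response, kinases that sense amino acid shortage, unfolded protein in the endoplasmic reticulum (ER), viral RNA or haem shortage phosphorylate the translation factor eIF2, which slows general protein synthesis but allows the transcription factor ATF4 to be translated. ATF4 binds composite CCAAT enhancer binding protein and ATF elements together with a partner and switches on genes for amino acid synthesis and import, for loading amino acids onto tRNA, and for feedback on the pathway. Because ATF4 is controlled mainly at translation, the level of its own mRNA does not report its activity.

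The promoters of several members carry such an element, and those of 4 members that were lower in NdpKO;Ptch+/- MBs are shown here with that of the cystine transporter gene *Slc7a11*, which holds 2 matches. RefSeq windows of 300 bases (250 before to 50 after the annotated start, build GRCm38.p6) were searched on both strands for the core TGATGNAA, whose reverse complement is TTNCATCA. Each stretch below runs 5′ to 3′ on the strand of its gene, upstream of the start, with the match in capitals.
Chac1, chr2:119351009-119351096, plus strand: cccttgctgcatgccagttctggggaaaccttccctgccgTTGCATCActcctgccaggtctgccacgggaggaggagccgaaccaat
Nupr1, chr7:126625533-126625620, minus strand: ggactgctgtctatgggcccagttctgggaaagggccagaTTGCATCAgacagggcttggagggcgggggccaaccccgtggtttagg
Asns, chr6:7693210-7693272, minus strand: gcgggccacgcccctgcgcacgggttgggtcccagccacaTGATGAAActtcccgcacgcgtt
Gars, chr6:55037931-55038000, plus strand: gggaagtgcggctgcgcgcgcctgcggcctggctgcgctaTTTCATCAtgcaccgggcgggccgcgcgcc
Slc7a11, chr3:50443614-50443719, minus strand: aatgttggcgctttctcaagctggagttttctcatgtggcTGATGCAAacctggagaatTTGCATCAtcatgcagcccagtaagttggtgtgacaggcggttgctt

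The core was present in the windows of 12 of the 31 members with a window (38.7%), and in those of 1219 of all 27025 genes with a window (4.51%). Besides the 5 shown, these members were *Aars*, *Iars*, *Tars*, *Yars*, *Trib3*, *Vldlr* and *Pycr1*. By role the core was found in 5 of 8 tRNA synthetases, 4 of 10 regulators and other targets, 2 of 9 synthesis enzymes and 1 of 4 transporters. The window of *Sesn2*, which was also lower in NdpKO;Ptch+/- MBs, held no match, and *Slc7a3* and *Aldh1l2* had no window. A match describes these letters only, and binding was not measured. The set was listed from known ATF4 targets and partners, so its higher share of matches is no independent result.

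The deposited values are normalized log2 signals of 45281 probes, which the authors corrected for background and quantile normalized, so every array has a median of 4.15 and general differences in level between arrays cannot be seen. The values lie between 4.09 and 16.0, and 28101 probes stayed under 4.5 throughout. Across probes, 2 arrays of a group correlated at r = 0.984 to 0.996 (Pearson). The groups were compared in 1 limma model over the 12 arrays with Benjamini-Hochberg adjustment across the whole array, and a gene passed at an adjusted p under 0.05. The number of arrays, 4 in each group, limits the precision. The log2 summed signal of 10 granule progenitor markers was 15.26 to 15.58 in NdpKO;Ptch+/- MBs, 15.71 to 15.86 in Ptch+/- MBs and 15.30 to 15.40 in GNPs. Against GNPs, 3 of these genes were higher and 2 lower in Ptch+/- MBs, and 1 was higher and 1 lower in NdpKO;Ptch+/- MBs. Among them *Zic1*, a transcription factor of the granule lineage, read 13.60 to 13.86 in NdpKO;Ptch+/- MBs, 13.71 to 14.12 in Ptch+/- MBs and 13.92 to 14.32 in GNPs. The probes of *Atoh1* and *Mycn* were under 4.5 on all 12 arrays and say nothing of the cell type.

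Several targets of the response stood lower in NdpKO;Ptch+/- MBs than in Ptch+/- MBs, while the mRNAs of *Atf4* and of its partner gene *Ddit3* did not differ beyond the spread between arrays. Of 36 measured members 7 were lower (adjusted p under 0.05, limma) and 0 were higher: *Chac1*, *Nupr1*, *Sesn2*, *Asns*, *Aldh1l2*, *Slc7a3* and *Gars*. The share of all 19057 genes called lower was 1.26%, and that called higher was 0.808%. Among the 8913 genes with a mean signal of at least 4.5, as 32 of the members have, the shares were 2.59% and 1.6%. At an unadjusted p under 0.05, 23 members were lower and 0 higher, against 7.91% and 8.52% of all genes and 13% and 14.6% of those with a mean of at least 4.5. Every NdpKO;Ptch+/- array was below every Ptch+/- array in 13 members, a pattern that 4.72% of all genes and 7.54% of the genes with a mean of at least 4.5 shared, and 0 members showed the opposite (4.68% of all genes). In *Trib3*, 1 of the 13, the highest NdpKO;Ptch+/- array read 4.153 and the lowest Ptch+/- array 4.154. Both are under the background limit, and that gap is not a measurable separation. The median log2 fold change (NdpKO;Ptch+/- minus Ptch+/-) over the 32 measurable members was -0.62, against 0.02 over the 8913 genes, and 30 of the 32 values were below 0, the exceptions being *Ddit4* and *Wars*. In tumor tissue, fewer cells of a type and less RNA per cell cannot be told apart.

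**Figure D1:**
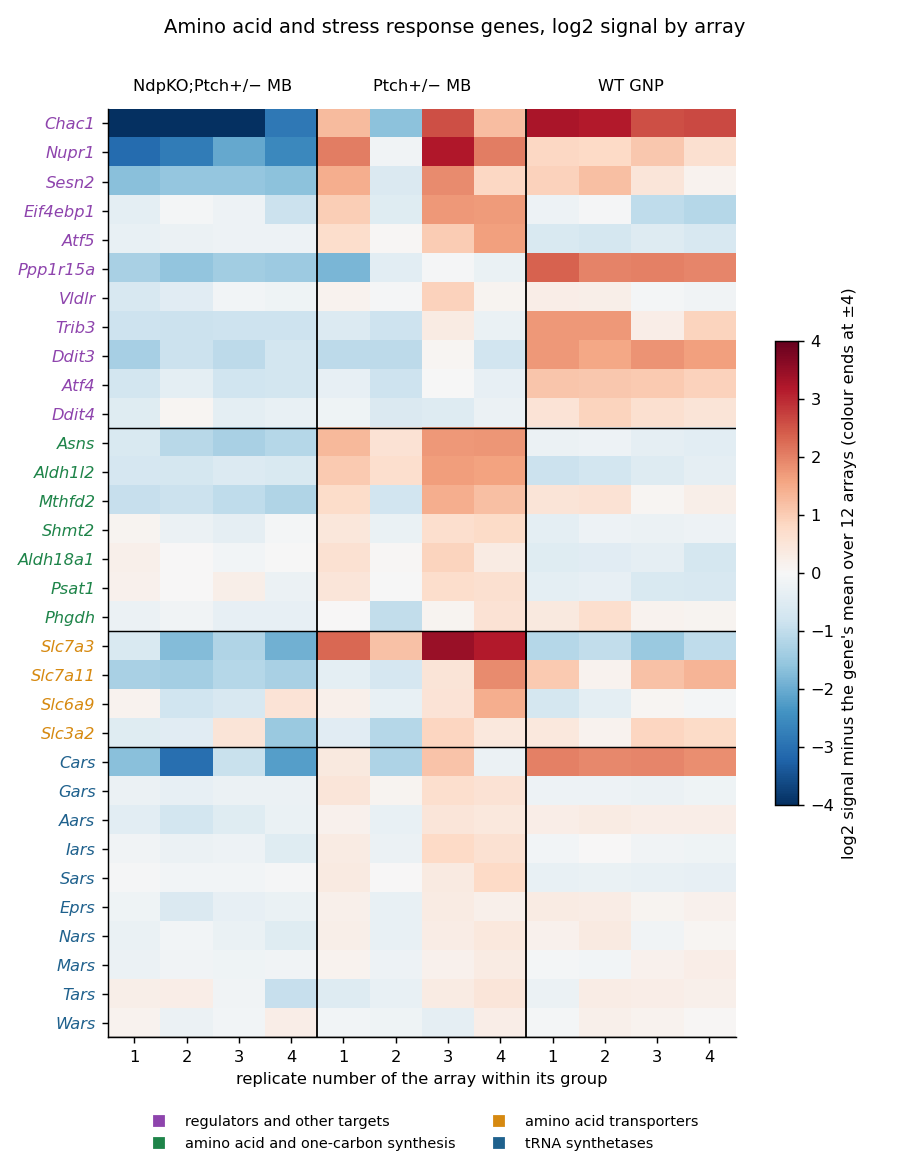
Log2 signal of the 32 measurable members (rows, grouped by role and ordered within a role by the difference between the tumor genotypes) on each of the 12 arrays (columns, by replicate number within a group), minus the gene's mean over the 12 arrays; red is above and blue below that mean, and the colours end at 4 in either direction. The NdpKO;Ptch+/- arrays are blue in most rows, the Ptch+/- arrays differ among themselves with replicate 2 the lowest in 29 rows, and the GNP arrays are red for *Chac1*, *Ppp1r15a*, *Ddit3*, *Atf4* and *Cars*.

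The calls have 2 limits. Fitted on the 8 tumor arrays alone, without the spread of the GNP arrays, 0 of the 36 members passed in limma (20 lower and 0 higher at an unadjusted p under 0.05), while 22 of all 45281 probes were higher and 42 lower. Without Ptch+/- replicate 2, which was the lowest Ptch+/- array in 29 of the 32 measurable members, 15 members were lower and 0 higher.

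Among the regulators and other targets, 3 of 11 members were lower in NdpKO;Ptch+/- MBs and the role's median log2 fold change was -0.78. *Nupr1* encodes a small chromatin protein induced by many stresses. Its log2 signal was 4.46, 4.74, 5.49 and 4.96 in the NdpKO;Ptch+/- MBs (replicates 1 to 4), 9.58, 7.40, 10.73 and 9.59 in the Ptch+/- MBs, and 8.35, 8.34, 8.60 and 8.16 in GNPs. The NdpKO;Ptch+/- arrays lay near background and the 3 groups did not overlap except that Ptch+/- replicate 2 fell below the GNPs. The difference between the tumor genotypes was -4.41 ± 0.58 (log2 fold change ± SE), or 21.3-fold lower (adjusted p = 0.00886).

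*Chac1* encodes a cyclotransferase that breaks down glutathione. It read 4.88, 4.97, 4.75 and 6.08 in the NdpKO;Ptch+/- MBs, 10.21, 7.30, 11.51 and 10.18 in the Ptch+/- MBs, and 12.21, 12.10, 11.51 and 11.58 in GNPs. The levels ran from NdpKO;Ptch+/- MBs through Ptch+/- MBs to GNPs, with the highest Ptch+/- array just under the lowest GNP array. The log2 fold change between the tumor genotypes was -4.63 ± 0.76, or 24.8-fold lower (adjusted p = 0.0211). This call was lost without NdpKO;Ptch+/- replicate 1, 2 or 3 and without Ptch+/- replicate 1.

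*Sesn2* encodes Sestrin2, a leucine sensor that restrains mTORC1. It read 4.22, 4.34, 4.35 and 4.24 in the NdpKO;Ptch+/- MBs, under the background limit on every array, and 7.35, 5.32, 7.78 and 6.73 in the Ptch+/- MBs. The GNP arrays, at 6.82, 7.10, 6.39 and 6.04, lay within the range of the Ptch+/- MBs. The mean of the Ptch+/- MBs was at least 4.91-fold above the limit (adjusted p = 0.0357), a call that held in 1 of the 12 fits that left out an array, the one without Ptch+/- replicate 2.

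*Atf4*, *Ddit3* and *Ddit4* did not pass between the tumor genotypes, whereas *Cebpb*, an ATF4 partner gene outside the set that is given further below, was lower. *Atf4* read 11.59 ± 0.18 (mean log2 signal ± SD, n = 4 arrays) in NdpKO;Ptch+/- MBs and 11.87 ± 0.33 in Ptch+/- MBs, with overlapping arrays and a difference of -0.29 ± 0.15 (adjusted p = 0.490). *Ddit3*, which encodes the transcription factor CHOP, read 7.96 ± 0.26 and 8.27 ± 0.53 (log2 fold change -0.30 ± 0.24, adjusted p = 0.684). *Ddit4*, which encodes the mTORC1 inhibitor REDD1, read 10.76 ± 0.25 and 10.65 ± 0.21 (0.11 ± 0.15, adjusted p = 0.851). A second, dimmer probe gave -0.21 for *Atf4* and -0.68 for *Ddit3*, and neither passed.

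*Atf5*, an ATF4 relative that is itself controlled at translation, read 9.93, 9.97, 10.00 and 10.00 in the NdpKO;Ptch+/- MBs and 10.91, 10.25, 11.22 and 11.85 in the Ptch+/- MBs. Its groups did not overlap, but the difference of -1.09 ± 0.26 did not pass (adjusted p = 0.0956). *Trib3*, a pseudokinase that feeds back on ATF4, was under 4.5 on all NdpKO;Ptch+/- arrays, at 4.12 to 4.15, and read 4.43, 4.15, 5.32 and 4.72 in Ptch+/- MBs (adjusted p = 0.613). *Vldlr*, a lipoprotein and reelin receptor gene, was also separated without passing (-0.62 ± 0.21, adjusted p = 0.230). *Eif4ebp1*, a repressor of cap-dependent translation, at -1.37 ± 0.49 (adjusted p = 0.251), and *Ppp1r15a*, which recruits the phosphatase that restores eIF2, at -0.78 ± 0.33 (adjusted p = 0.339), overlapped between the tumor genotypes.

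**Figure D2:**
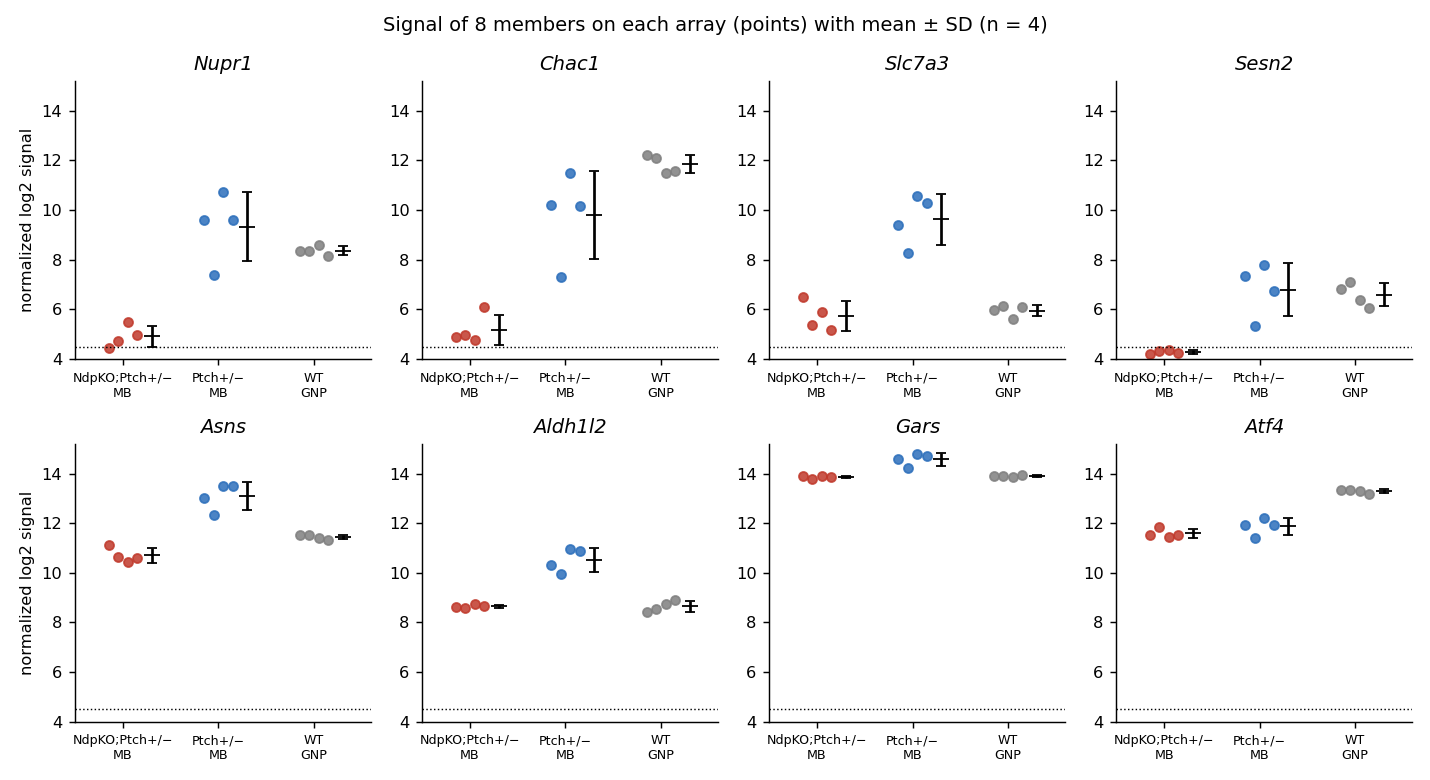
Normalized log2 signal of 8 members on each of the 12 arrays (points, 4 in each group), with mean ± SD beside them; the dotted line is the background limit of 4.5. *Nupr1*, *Chac1*, *Slc7a3*, *Sesn2*, *Asns*, *Aldh1l2* and *Gars* separate the tumor genotypes without overlap, and *Atf4* separates both from GNPs.

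Of the 9 measured enzymes of amino acid and one-carbon synthesis, 2 were lower and the median log2 fold change of the 7 measurable ones was -0.55, all 7 values being below 0. *Asns*, asparagine synthetase, a classical ATF4 target, read 11.13, 10.63, 10.44 and 10.61 in the NdpKO;Ptch+/- MBs, 13.03, 12.32, 13.48 and 13.51 in the Ptch+/- MBs, and 11.51, 11.53, 11.40 and 11.34 in GNPs. The Ptch+/- MBs stood above both other groups on every array. The log2 fold change between the tumor genotypes was -2.38 ± 0.25, or 5.21-fold lower (adjusted p = 0.00388), and the other probes of the gene gave -3.52 (adjusted p = 0.0184) and -2.61 (adjusted p = 0.00771).

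*Aldh1l2*, a mitochondrial dehydrogenase that oxidizes formyl-tetrahydrofolate to carbon dioxide, read 8.61, 8.57, 8.73 and 8.68 in the NdpKO;Ptch+/- MBs, 10.32, 9.94, 10.94 and 10.88 in the Ptch+/- MBs, and 8.42, 8.54, 8.75 and 8.92 in GNPs. The Ptch+/- MBs again stood apart, and the NdpKO;Ptch+/- arrays lay within the range of the GNP arrays. The difference between the tumor genotypes was -1.88 ± 0.21, or 3.67-fold lower (adjusted p = 0.00466), and a second probe gave -3.02 (adjusted p = 0.0018).

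*Mthfd2*, which acts beside it in mitochondrial folate metabolism, read 10.51, 10.59, 10.42 and 10.24 in the NdpKO;Ptch+/- MBs and 12.17, 10.67, 12.91 and 12.65 in the Ptch+/- MBs. The groups were separated by the narrow gap to Ptch+/- replicate 2, and the difference of -1.66 ± 0.41 did not pass (adjusted p = 0.101). *Shmt2*, the mitochondrial enzyme that splits serine into glycine and a one-carbon unit, and *Aldh18a1*, which starts proline synthesis, overlapped at -0.55 ± 0.20 (adjusted p = 0.269) and -0.45 ± 0.17 (adjusted p = 0.270). The serine synthesis genes *Psat1* and *Phgdh* gave -0.40 ± 0.17 (adjusted p = 0.343) and -0.18 ± 0.28 (adjusted p = 0.870).

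Of 5 measured transporters 1 was lower, and the median of the 4 measurable ones was -1.13. *Slc7a3* encodes the cationic amino acid transporter CAT3, an importer of arginine and lysine, and lies on the X chromosome. It read 6.50, 5.38, 5.89 and 5.17 in the NdpKO;Ptch+/- MBs, 9.41, 8.28, 10.56 and 10.28 in the Ptch+/- MBs, and 5.97, 6.12, 5.61 and 6.09 in GNPs. The Ptch+/- MBs were far above both other groups, which overlapped with each other. The difference between the tumor genotypes was -3.90 ± 0.48, or 14.9-fold lower (adjusted p = 0.00706).

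*Slc7a11*, the cystine and glutamate exchanger whose promoter holds the 2 matches shown above, was under the background limit on all NdpKO;Ptch+/- arrays (4.14 to 4.36) and read 5.09, 4.80, 5.99 and 7.38 in the Ptch+/- MBs. The groups did not overlap, but the difference did not pass (adjusted p = 0.195). Its heavy chain partner *Slc3a2* and the glycine transporter gene *Slc6a9* overlapped between the tumor genotypes, *Slc3a2* at -0.40 ± 0.50 (adjusted p = 0.825) and *Slc6a9* at -0.67 ± 0.41 (adjusted p = 0.566).

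Among the tRNA synthetases 1 of 11 was lower, with a median of -0.46 over the 10 measurable ones, 9 of which were below 0. *Gars*, glycyl-tRNA synthetase, read 13.88, 13.80, 13.89 and 13.87 in the NdpKO;Ptch+/- MBs, 14.60, 14.21, 14.79 and 14.69 in the Ptch+/- MBs, and 13.90, 13.90, 13.88 and 13.95 in GNPs. The Ptch+/- MBs were higher than both other groups on every array, and the difference between the tumor genotypes was -0.71 ± 0.10, or 1.64-fold lower (adjusted p = 0.0126). A second probe of *Gars*, near background, gave -0.25 without passing (adjusted p = 0.492). *Sars*, seryl-tRNA synthetase, was separated without passing, at -0.47 ± 0.12 (adjusted p = 0.123) and -1.05 by its second probe (adjusted p = 0.0562). *Cars*, cysteinyl-tRNA synthetase, had the widest difference of the role, -1.96 ± 0.53, with arrays from 4.58 to 6.70 against 6.35 to 8.74 that overlapped (adjusted p = 0.132). *Aars* (-0.67 ± 0.16, adjusted p = 0.0881), *Iars* (-0.63 ± 0.19, adjusted p = 0.175), *Eprs* (-0.45 ± 0.13, adjusted p = 0.167) and *Nars* (-0.44 ± 0.16, adjusted p = 0.260) overlapped, as did *Mars*, *Tars* and *Wars*, which lay between -0.27 and 0.11. The other probes of *Wars* were higher without passing, at 0.37 (unadjusted p = 0.0226, adjusted p = 0.270), 0.40 (adjusted p = 0.786) and 0.64 (adjusted p = 0.516).

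**Figure D3:**
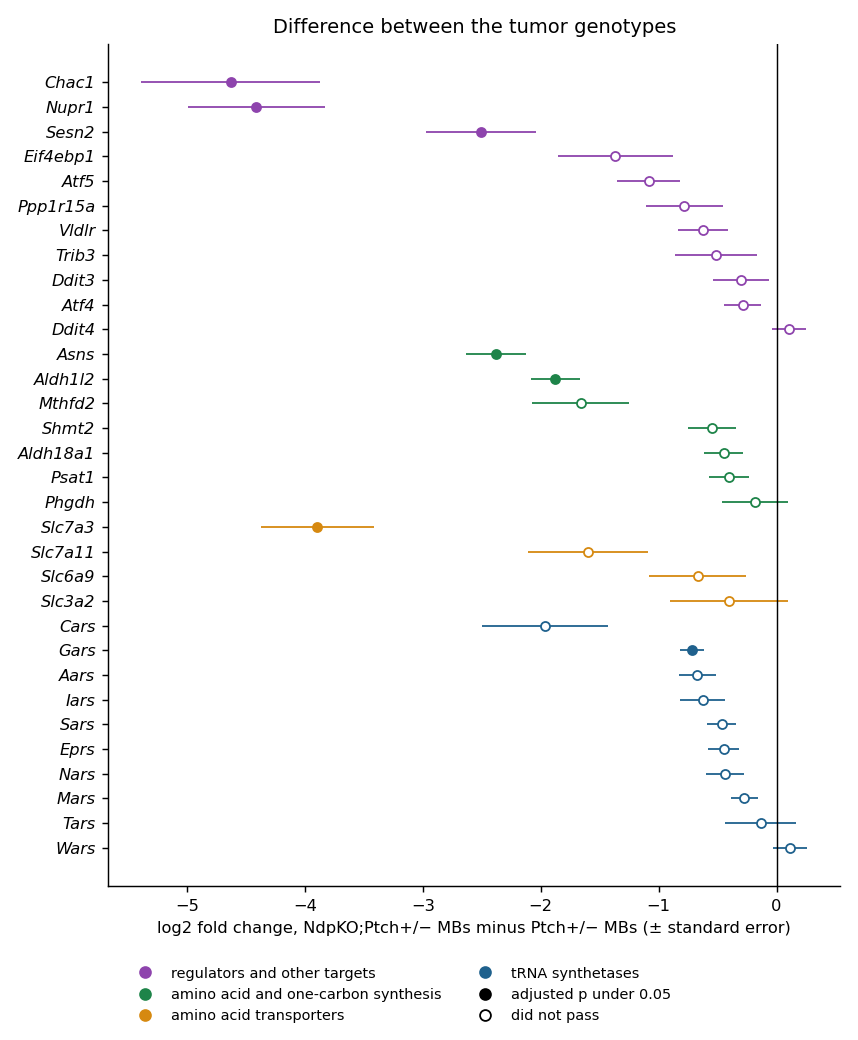
Log2 fold change between the tumor genotypes (NdpKO;Ptch+/- MBs minus Ptch+/- MBs, horizontal axis) of the 32 measurable members, with the standard error as a bar and colour for the role; filled points have an adjusted p under 0.05. All points but *Ddit4* and *Wars* lie left of 0, from -4.63 for *Chac1* to 0.11 for *Wars*. The point of *Sesn2* is a fitted value, since its NdpKO;Ptch+/- arrays lie under the background limit, as do those of *Trib3* and *Slc7a11*.

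The spread of the members was unequal between the tumor genotypes. The SD over the 4 arrays was smaller in NdpKO;Ptch+/- MBs than in Ptch+/- MBs in 30 of 32 members, with median SDs of 0.18 and 0.49, whereas it was smaller in 49.0% of the 8913 genes with a mean of at least 4.5, whose median SDs were 0.23 and 0.22. The NdpKO;Ptch+/- arrays of *Sesn2*, *Trib3* and *Slc7a11* lay under the background limit, with SDs of 0.068, 0.013 and 0.095. Values there have little room to vary, and the part of this in the unequal spread was not tested. The members moved together across the Ptch+/- arrays. Averaged over the 32 members and set against the GNP mean, the log2 signal was 0.00, -0.68, 0.54 and 0.40 on Ptch+/- replicates 1 to 4, and between -1.12 and -1.01 on the NdpKO;Ptch+/- arrays. Replicate 2 was thus the lowest Ptch+/- array for the set but lay above all NdpKO;Ptch+/- arrays. It was the lowest of the Ptch+/- arrays in 29 of 32 members but in 25.0% of the 8913 genes, and replicate 3 was the highest in 20 members.

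By role, the average on Ptch+/- replicate 2 against the GNP mean was -1.49 for the regulators, 0.11 for the synthesis enzymes, -0.25 for the transporters and -0.51 for the tRNA synthetases. The corresponding ranges over the NdpKO;Ptch+/- arrays were -2.24 to -2.02, -0.30 to -0.07, -1.10 to -0.58 and -0.75 to -0.50. In 3 of the roles replicate 2 lay above all NdpKO;Ptch+/- arrays, while for the tRNA synthetases it lay within their range. On that array the summed signal of 8 measured proliferation genes was the lowest of the Ptch+/- MBs (log2 14.31, against 14.43 to 14.56), and that of the granule progenitor markers was the highest (15.86, against 15.71 to 15.82). Their part in the result was not tested.

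Markers of cell types were read beside the difference between the tumor genotypes. The log2 of the summed signal of 10 granule progenitor markers was 15.26 to 15.58 in NdpKO;Ptch+/- MBs and 15.71 to 15.86 in Ptch+/- MBs, with no overlap, 1 of the 10 genes passing (*Ccnd2*, -0.85, adjusted p = 0.028) and *Atoh1* and *Mycn* under the limit. The sums of the other 8 lists overlapped between the tumor genotypes: 12 endothelial markers at 11.79 to 12.42 against 11.41 to 11.99 (*Kdr* and *Tie1* under the limit), 12 astrocyte and Bergmann glia markers at 14.61 to 15.19 against 14.87 to 15.59, and 11 microglia and macrophage markers at 11.93 to 12.53 against 12.17 to 13.26 (*Itgam*, *Ptprc* and *Tmem119* under the limit). Mural and fibroblast markers read 10.69 to 11.52 against 10.93 to 12.42, oligodendrocyte lineage markers 13.58 to 14.13 against 13.43 to 14.26, neuron markers 14.10 to 14.62 against 13.83 to 14.43, red blood cell genes 10.24 to 12.70 against 6.94 to 10.67, and proliferation genes 14.24 to 14.59 against 14.31 to 14.56. Of these 8 lists, 5 to 6 of 10 neuron markers, 5 of 10 mural and fibroblast markers, 2 of 9 oligodendrocyte lineage markers and 3 of 4 red blood cell genes were under the limit in a tumor genotype, so the last sum is that of 1 gene. The genes of these lists that passed were the endothelial *Emcn* (1.95, adjusted p = 0.0321), the astrocyte gene *Hopx* (1.71, adjusted p = 0.0126) and *Mcm2* of the proliferation list (-0.77, adjusted p = 0.00661). All 8 measurable microglia and macrophage markers were below 0, 3 of them at an unadjusted p under 0.05. The part of cell composition in the lower target genes was not tested.

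Both tumor genotypes were then compared with normal GNPs. GNPs had been dissociated and purified on a Percoll gradient with pre-plating before lysis and tumors had not, by the records, so handling, tissue and age cannot be told apart from tumor state in these comparisons, which also share their GNP arrays.

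In Ptch+/- MBs 4 of 9 synthesis enzymes were higher than in GNPs, and 5 of 11 regulators were lower. Of 36 members 8 were higher (10.3% of all genes) and 6 lower (10.9%). All of these were among the 32 measurable members, and the genes with a mean of at least 4.5 were called higher in 19.7% and lower in 18.5%. The counts over the whole set thus lay near the background, as did that of the transporters, of which 1 of 5 was higher. The synthesis enzymes held 4 of the 8 that were higher and 0 that were lower: *Aldh1l2* at 1.86 ± 0.21 (log2 fold change ± SE, adjusted p = 0.00028), *Asns* at 1.64 ± 0.25 (adjusted p = 0.00176), *Aldh18a1* at 0.96 ± 0.17 (adjusted p = 0.00339) and *Psat1* at 0.95 ± 0.17 (adjusted p = 0.00405). The widest rise was that of the transporter gene *Slc7a3*, 3.68 ± 0.48, or 12.8-fold (adjusted p = 0.000661). *Atf5* (1.47 ± 0.26, adjusted p = 0.0042), *Gars* (0.67 ± 0.10, adjusted p = 0.0017) and *Sars* (0.69 ± 0.12, adjusted p = 0.00434) were also higher.

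The 6 lower members were *Atf4* (-1.41 ± 0.15, adjusted p = 0.000231), *Ddit3* (-2.36 ± 0.24, adjusted p = 0.000143), *Ddit4* (-1.03 ± 0.15, adjusted p = 0.0011), *Ppp1r15a* (-2.72 ± 0.33, adjusted p = 0.000414), *Trib3* (-1.48 ± 0.35, adjusted p = 0.0161) and *Cars* (-1.92 ± 0.53, adjusted p = 0.0355). The mRNA of *Atf4* read 13.35, 13.33, 13.31 and 13.16 in GNPs and 11.93, 11.41, 12.22 and 11.92 in the Ptch+/- MBs, with no overlap. *Nupr1* (0.96 ± 0.58, adjusted p = 0.322), *Sesn2* (0.21 ± 0.46, adjusted p = 0.827) and *Chac1* (-2.05 ± 0.76, adjusted p = 0.098) did not pass. *Eprs*, *Iars* and *Wars* did not pass by their brightest probes. Dimmer probes gave -2.86 (adjusted p = 1.74e-05) and -0.80 (adjusted p = 0.104) for *Eprs*, and 0.63 (adjusted p = 0.0291) for *Iars*. Those of *Wars* gave -0.58 (adjusted p = 0.0179), -1.39 (adjusted p = 0.0484) and -1.40 (adjusted p = 0.0252). Without Ptch+/- replicate 2, 13 members were higher and 5 lower, and *Cars* was no longer among them. The call of *Cars* held in 4 of the 12 fits that left out an array, those without NdpKO;Ptch+/- replicate 2, 3 or 4 or Ptch+/- replicate 3.

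In NdpKO;Ptch+/- MBs 13 members were lower than in GNPs (7.98% of all genes) and 0 higher (7.69%), against 13.3% and 15.5% of the genes with a mean of at least 4.5. At an unadjusted p under 0.05, 17 were lower and 2 higher, against 15% and 14.7% of all genes and 22.2% and 25.3% of those with a mean of at least 4.5. The regulators held 8 of the 13: *Chac1* at -6.68 ± 0.76 (103-fold lower, adjusted p = 0.000407), *Ppp1r15a* at -3.50 ± 0.33 (adjusted p = 0.00012), *Nupr1* at -3.45 ± 0.58 (adjusted p = 0.004), *Ddit3* at -2.67 ± 0.24 (adjusted p = 9.3e-05), *Atf4* at -1.70 ± 0.15 (adjusted p = 0.000102) and *Ddit4* at -0.93 ± 0.15 (adjusted p = 0.00274), with *Sesn2* at least 4.26-fold lower (adjusted p = 0.0101) and *Trib3* at least 3.11-fold lower (adjusted p = 0.00472). *Slc7a11* was at least 3.80-fold lower (adjusted p = 0.0188), a call lost without NdpKO;Ptch+/- replicate 1 or GNP replicate 1, 3 or 4. Among the synthetases *Cars* was 14.7-fold lower (-3.88 ± 0.53, adjusted p = 0.00126), *Aars* 1.69-fold (adjusted p = 0.0124) and *Eprs* 1.49-fold (adjusted p = 0.0198), the last lost without GNP replicate 1 or 2. The dimmer probes of *Eprs* were also lower, by -1.20 (adjusted p = 0.0281) and by at least 8.47-fold (adjusted p = 8.96e-06). The last of the 13, *Cth*, differed by -0.03 at background and is not a measurable change.

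The difference between NdpKO;Ptch+/- MBs and GNPs was then read for the members that were higher in Ptch+/- MBs. *Aldh1l2* differed from GNPs by -0.01 ± 0.21 (adjusted p = 0.986), *Gars* by -0.05 ± 0.10 (adjusted p = 0.835) and *Slc7a3* by -0.21 ± 0.48 (adjusted p = 0.839), with overlapping arrays. *Asns* lay below GNPs on every NdpKO;Ptch+/- array, at -0.74 ± 0.25 without passing (adjusted p = 0.0933), and passed with dim probes left out, with only the 2 groups compared or without Ptch+/- replicate 2. *Psat1* (0.54 ± 0.17, adjusted p = 0.0668) and *Aldh18a1* (0.51 ± 0.17, adjusted p = 0.0784) had means between those of the Ptch+/- MBs and the GNPs, and lay above GNPs on every NdpKO;Ptch+/- array without passing. The same held for *Atf5* (0.39 ± 0.26, adjusted p = 0.420) and *Sars* (0.22 ± 0.12, adjusted p = 0.315), which passed with only the 2 groups compared. A second probe of *Sars* gave -0.44 (adjusted p = 0.262).

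Over the 32 measurable members, the mean of the NdpKO;Ptch+/- MBs was the lowest of the 3 groups in 23 and the highest in 0, whereas among the 8913 genes it was the lowest in 22.2% and the highest in 28.6%. Ptch+/- MBs were highest in 18 members, among them 6 of the 7 synthesis enzymes, and in 2840 of the 8913 genes. GNPs were highest in 14 members, among them 6 of the 11 regulators, and in 3525 of the 8913 genes, so their count lay near the background.

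**Figure D4:**
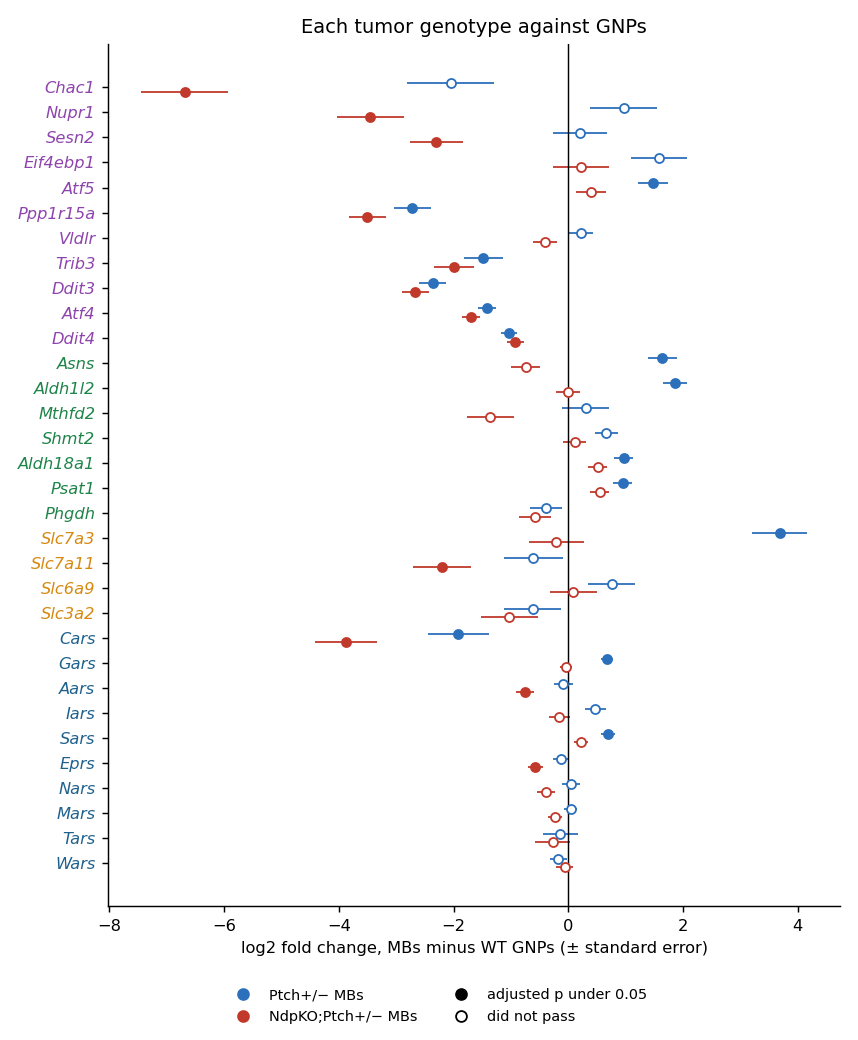
Log2 fold change against GNPs (horizontal axis, with the standard error as a bar) of the 32 measurable members in Ptch+/- MBs (blue) and NdpKO;Ptch+/- MBs (red); filled points have an adjusted p under 0.05 and names are coloured by role. Filled blue points lie right of 0 for *Atf5*, *Asns*, *Aldh1l2*, *Aldh18a1*, *Psat1*, *Slc7a3*, *Gars* and *Sars*, and all filled red points lie left of 0.

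Neighbouring gene groups were read in the same way between the tumor genotypes, with counts over all measured genes of a list and medians over those with a mean of at least 4.5. The kinases of eIF2, eIF2 and its exchange factor eIF2B had 0 of 14 measured genes passing and a median of 0.04 over 11 (2 higher and 1 lower at an unadjusted p under 0.05). Cytosolic synthetases and scaffold proteins outside the set had 0 of 11 passing and a median of 0.15 over 10 (4 higher and 1 lower at an unadjusted p under 0.05), and mitochondrial synthetases 0 of 16 passing and 0.23 over 12 (4 higher, 0 lower). Other amino acid transporters had 0 of 17 passing with a median of -0.28 over 11 and of -0.06 over all 17 (0 higher, 4 lower), including *Slc6a6* at -0.70 (adjusted p = 0.158), *Slc38a2* at -0.59 (adjusted p = 0.134) and *Slc1a4* at -0.76 (adjusted p = 0.144).

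The partners of ATF4 and other stress targets had 1 of 19 lower and 0 higher (7 and 0 at an unadjusted p under 0.05), with a median of -0.37 over 12 and of -0.01 over all 19. The gene that passed was *Cebpb*, a transcription factor that pairs with ATF4. It read 4.52 to 6.14 in NdpKO;Ptch+/- MBs and 7.76 to 9.09 in Ptch+/- MBs, a difference of -2.81 ± 0.36 (adjusted p = 0.00828), while GNPs stood at 8.56 to 8.67. *Cdkn1a*, a cell cycle inhibitor gene, gave -1.74 without passing (adjusted p = 0.133). Of 14 other folate and glycine cleavage genes, *Gldc*, the glycine decarboxylase, was higher in NdpKO;Ptch+/- MBs by 1.07 ± 0.14 (adjusted p = 0.00865). Of 20 ER chaperone and unfolded protein response genes, *Pdia3*, a disulphide isomerase, was higher by 0.24 ± 0.05 (adjusted p = 0.0415), and the median over 17 was 0.20.

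**Figure D5:**
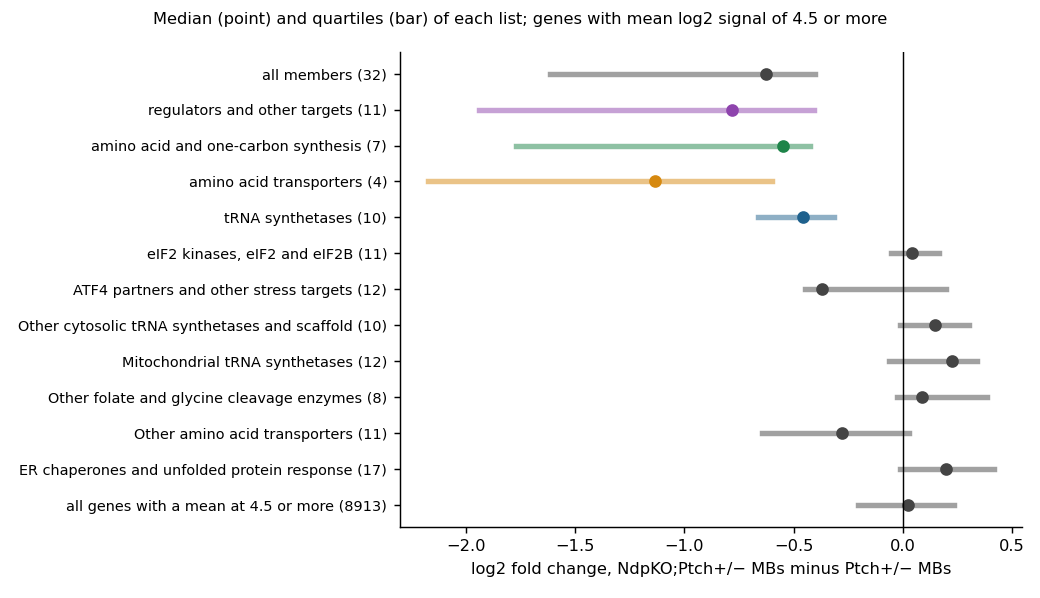
Median (point) and quartiles (bar) of the log2 fold change between the tumor genotypes (NdpKO;Ptch+/- MBs minus Ptch+/- MBs, horizontal axis) for the members, their 4 roles, 7 neighbouring lists and all genes, with the number of genes of mean signal 4.5 or more in brackets. The 4 roles have medians from -1.13 to -0.46, and all genes have a median of 0.02.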

How the data were processed

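RNA of 4 NdpKO;Ptch+/- MBs, 4 Ptch+/- MBs and 4 samples of P6 GNPs was hybridised to Illumina mouse BeadChips. The values, deposited on the log2 scale, had been normalized by the authors with neqc in limma (version not given in the sources used here), which uses the negative control probes to correct background, adds an offset and then equalizes quantiles. An offset shrinks fold changes of dim probes. No scanner files, slides or scan dates were used here.

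All statistics were computed anew (R 4.3.3, limma 3.58.1). The probe annotation given with the platform names 1 symbol for 34885 probes, several for 18 and none for 10378, and *Mars* was found through a RefSeq synonym. Of the 36 measured members 24 have over 1 probe, and the probe with the highest mean was used. A group-means model without covariates was fitted to all 12 arrays and 45281 probes (lmFit, eBayes), with Benjamini-Hochberg adjustment across the whole array and a threshold of 0.05. Genes under 4.5 on every array of the dimmer group have only a bound ("at least"), the brighter mean set against 4.5, and a fold is less certain where some arrays lie under it. Groups came from the sample labels. The members, the lists and the limit of 4.5 were chosen with earlier results of these data known. All members are named, and of other lists up to 3 genes with the smallest p, or those that a count of 5 or fewer asks for. Lists were described by counts and medians and not tested. The model was tested on simulated data in which a probe had the same SD in all groups, so that test does not cover the unequal spread of the members.

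The alternatives were median centring, a second quantile normalization, leaving out probes under 4.5 on all arrays, array weights, a robust prior with an intensity trend, only the 2 groups compared, the replicate number as a block, the mean of a gene's probes, a threshold of 0.01, and leaving out each array. Promoter windows and their coordinates came from RefSeq (GRCm38.p6), and the chromosome of *Slc7a3* came from RefSeq gene records. Gene positions were not used in the comparisons of expression, since the expression files name no build.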

Additional observations from a re-analysis of the deposited data

Results flagged for a closer look

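In 3 of 93 groups of 4 arrays 1 array stood apart from the other 3 by Dixon's test, which chance alone gives in about 1 group in 20. *Chac1* was highest on NdpKO;Ptch+/- replicate 4, at 6.08 against 4.97 for the next array (gap over range 0.835). *Ppp1r15a* was highest on GNP replicate 1, at 9.58 against 9.23 (0.864), and *Tars* was lowest on the same array, at 7.09 against 7.53 (0.840).

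The 7 members that passed between the tumor genotypes were flagged because their effect (tumor minus GNP) was unlike in the 2 tumor groups. Both effects use the same WT GNP arrays, which cancel. The flag therefore repeats the comparison between the tumors and is not a separate result. No GNPs with the *Ndp* knockout were analysed here, so an interaction of genotype and tumor state was not tested. The log2 difference between the 2 effects was -4.63 for *Chac1*, -4.41 for *Nupr1*, -3.90 for *Slc7a3*, -2.51 for *Sesn2* (a fitted value, with NdpKO;Ptch+/- arrays under background), -2.38 for *Asns*, -1.88 for *Aldh1l2* and -0.71 for *Gars*. Against GNPs, *Slc7a3*, *Asns*, *Aldh1l2* and *Gars* passed as higher in Ptch+/- MBs, and *Chac1*, *Nupr1* and *Sesn2* passed as lower in NdpKO;Ptch+/- MBs.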

How the results depend on the processing

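Between the tumor genotypes, 7 members were lower. This became 4 at an adjusted p under 0.01, 11 with dim probes left out (adding *Aars*, *Atf5*, *Cars* and *Mthfd2*) and 0 with only the 2 groups compared, and lay between 7 and 9 with median centring, a second quantile normalization, a trend with a robust prior, array weights and the mean of a gene's probes. The count of members higher was 0 in all of these and in every fit that left out an array. Leaving out each array in turn gave 5 to 15 lower, and the 15 came without Ptch+/- replicate 2, which added *Aars*, *Atf5*, *Eif4ebp1*, *Eprs*, *Iars*, *Mthfd2*, *Sars* and *Shmt2*. *Nupr1*, *Asns*, *Aldh1l2*, *Slc7a3* and *Gars* passed in all 12 of these fits, *Chac1* in 8 and *Sesn2* in 1. Ptch+/- MBs against GNPs (14 changed, 8 higher and 6 lower) gave 13 to 18, 8 to 13 and 5 to 7 when each array was left out, and *Cars* passed in 4 of the 12. NdpKO;Ptch+/- MBs against GNPs (13 changed, all lower) gave 8 changed and 8 lower at 0.01, and 10 to 17 changed, 10 to 15 lower and 0 to 2 higher when each array was left out. The count higher there was 2 with dim probes left out, 2 with a trend and robust prior, 1 with array weights and 4 with only the 2 groups compared. *Slc7a11* passed in 8 of the 12 fits, *Eprs* in 10 and *Cth* in 1. The cause of these shifts was not tested. No log2 fold change of a called member changed sign.

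The replicate numbers of the labels do not pair the samples. Deviations from the group means of arrays with the same number correlated between -0.18 and 0.11. With the replicate number as a block, 5 members were lower between the tumor genotypes (*Chac1* and *Sesn2* did not pass), 13 changed in Ptch+/- MBs against GNPs and 12 in NdpKO;Ptch+/- MBs against GNPs. Members under 4.5 on all arrays, 4 of the 36, could not be compared.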

Other observations

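Of 20 measured ER chaperone and unfolded protein response genes, 13 were lower and 1 higher in Ptch+/- MBs, and 8 were lower and 1 higher in NdpKO;Ptch+/- MBs. In these comparisons 10.9% and 7.98% of all genes were lower, and 18.5% and 13.3% of those with a mean signal of at least 4.5, as 17 of the 20 have. *Calr*, the ER chaperone calreticulin, gave -1.06 ± 0.11 (log2 fold change ± SE, adjusted p = 0.000223, limma) and -0.60 ± 0.11 (adjusted p = 0.00751). *Pdia3* gave -0.45 ± 0.05 (adjusted p = 0.000152) and -0.21 ± 0.05 (adjusted p = 0.0138), and *Herpud1*, a gene of ER-associated degradation, -0.98 ± 0.18 (adjusted p = 0.00504) and -1.32 ± 0.18 (adjusted p = 0.00124). The stress-induced transcription factor gene *Atf3* read 8.55 to 8.80 in GNPs and 4.13 to 4.20 in the 8 tumors, at least 17.9-fold lower in each genotype (adjusted p = 5.49e-12 and 5.33e-12). Handling and group cannot be told apart in these comparisons.

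*Shmt1*, the cytosolic counterpart of *Shmt2*, was higher than in GNPs in both tumor genotypes, by 1.47 ± 0.15 (adjusted p = 0.000161) in Ptch+/- MBs and 1.46 ± 0.15 (adjusted p = 0.000231) in NdpKO;Ptch+/- MBs, and differed by -0.01 ± 0.15 (adjusted p = 0.997) between them. *Lars*, a cytosolic synthetase outside the set, was higher by 0.96 ± 0.10 (adjusted p = 0.000151) and 0.59 ± 0.10 (adjusted p = 0.00385).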
